A study of Mus musculus with 22 samples.

Results

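Hyaluronan is a long sugar polymer of the extracellular matrix, and 8 genes that make, cut or bind it, or build the matrix around it, were followed across 22 mouse mammary cell lines. They were the hyaluronan synthases Has1, Has2 and Has3, the hyaluronidases Hyal1 and Hyal2, the hyaluronan-binding protein gene Hmmr, the hyaluronan-binding proteoglycan gene Vcan (versican) and the matrix glycoprotein gene Tnc (tenascin-C). The members were picked by gene symbol from 14860 genes that had a probe set with that symbol alone, and each of the 8 had 1 such probe set. The set was put together because Has2 had been seen to be low in lines from Myc-transgenic tumours. The difference in Has2 between those lines and the other engineered lines is therefore what chose the set, and it is described here with no test.

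Synthases at the cell membrane assemble hyaluronan from UDP-glucuronic acid and UDP-N-acetylglucosamine and push the chain out of the cell. Outside, the chain is held by the receptor CD44, is bundled with versican and other binding proteins into a pericellular coat, and is cut by hyaluronidases. Has2 is the main synthase of many mesenchymal and mammary carcinoma cells, and versican and tenascin-C are typical of provisional and tumour matrix.

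Each line was profiled on 1 exon array, and the deposited values, taken as log2, are relative RNA levels of 1 probe set. Levels are compared between lines for a gene, not between 1 gene and another. A gene is set beside the median of its array only as a rough guide to low signal. The 12 lines from genetically engineered mice (GEM) were set beside 8 lines from tumours that arose without engineering and 2 immortalized, non-tumour mammary lines. Related lines (those of 1 tumour, of 1 nodule line, or a line and its derivative) were averaged, so that the 22 lines made 17 lineages.

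Of the GEM lines, 6DT1, cMyc and Myc83 carried a Myc transgene under the mammary tumour virus promoter (MMTV), which drives expression in mammary epithelium. MVT1 and MVT2 came from MMTV-driven Myc and VEGF bitransgenic mice, so that 5 lines in all carried Myc. The 7 other GEM lines had other drivers. Lines 2508 and 2855 carried MMTV-Wnt and are labelled with the same tumour. They were grown in 2.5% serum with insulin (12 ng/ml) and EGF (10 ng/ml), whereas each other GEM line was grown in 10% serum with neither factor named. M6 carried the SV40 large T antigen under the C3(1) promoter, and M6C was grown from a lung metastasis of M6. DB7 came from a transplanted MMTV-PyVT tumour whose polyoma middle T was doubly mutated. Line 780 was BRCA-/- with Wap-cre, and its labels disagree on p53, giving it as +/+ in one field and +/- in another. Line p1522 was p53-/- with MMTV-cre.

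The spontaneous-tumour lines 67NR, 4T07 and 4T1 came from 1 tumour of a BALB/cfC3H mouse. The labels describe 67NR as non-disseminating, 4T07 as spreading to lung without colonizing it, and 4T1 as fully metastatic. The first was made resistant to geneticin and 4T07 to thioguanine and ouabain by transfection, while 4T1 was selected for thioguanine resistance. D2A1 and D20R came from tumours of 1 hyperplastic nodule line, D2. EMT6 and TSA came from BALB/c tumours, and F311 is a clone from a BALB/c adenocarcinoma that forms sarcomatoid tumours. EPH4, a subclone carrying an empty vector, and NMUMG were the immortalized lines. All lines were harvested in culture, with no repeat culture of any.

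Array medians ran from 6.78 to 7.17. Arrays differed in width, with SDs from 1.76 for 2855 to 2.12 for p1522, and 2508 and F311 were also narrow at 1.88. A value below every array median lies near background, where the size of a difference is uncertain. Epithelial identity of the lines varied. Of the defining epithelial markers, Cdh1 lay below the array median in 11 of 22 lines, Epcam in 13 and Krt18 in 2, whereas of the mesenchymal markers the filament gene Vim lay below it in 0 of 22 and the receptor gene Pdgfra in 11. The leukocyte gene Ptprc and the endothelial gene Pecam1 lay below the median in 22 of 22 lines. In bulk samples, fewer cells that express a gene and less RNA per cell cannot be told apart.

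Has2 separated the engineered lines by driver. In the Myc-transgenic lines it read 5.70 in 6DT1, 5.70 in MVT2, 5.86 in Myc83, 6.07 in cMyc and 6.31 in MVT1. In the other GEM lines it read 8.86 in 2508, 9.09 in M6C, 9.15 in M6, 9.31 in 780, 9.36 in p1522, 9.66 in 2855 and 10.44 in DB7. Each Myc line lay below every array median and each other GEM line above, and the lowest of the other GEM lines exceeded the highest Myc line by 2.55 log2 units. Over lineages the means were 5.93 ± 0.26 (SD, n = 5) and 9.50 ± 0.53 (SD, n = 5). The Myc minus other GEM difference was therefore -3.57, or 11.9-fold, and leaving out any 1 lineage kept it between -3.67 and -3.33. With groups that do not overlap, no such omission could turn its sign, so that range is a description alone. The Myc values may sit on the floor of the array, so the fold is uncertain.

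**Figure D1:**
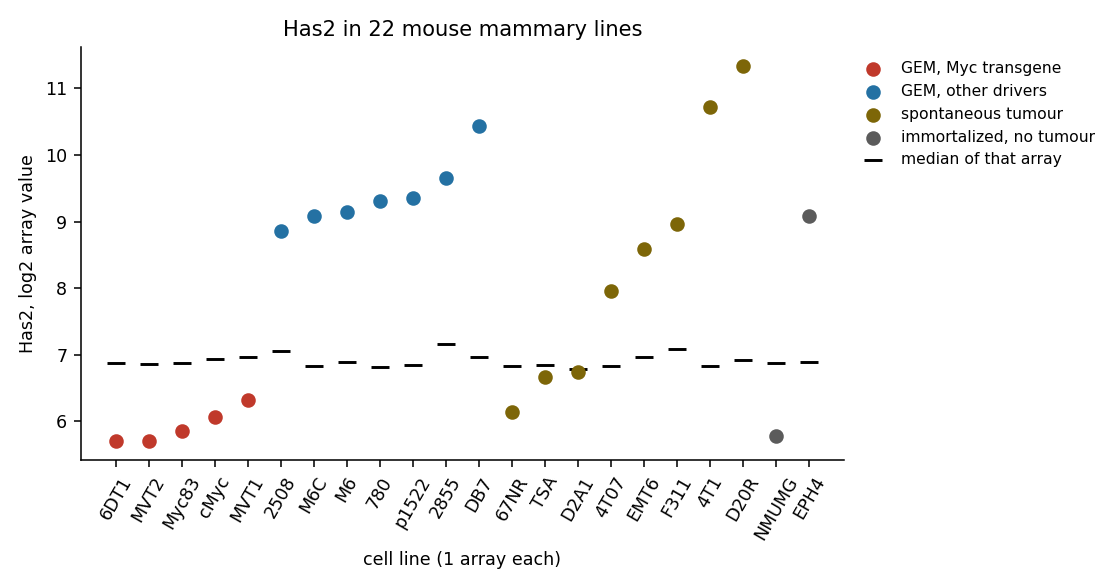
Has2 in each of 22 lines, as the log2 array value on the vertical axis, with lines on the horizontal axis ordered by level within their origin. Each point is 1 array and each dash the median of that array. The 5 Myc lines lie below their array medians and the 7 other GEM lines above, while the lines that were not engineered spread from 5.79 to 11.34.

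The Has2 levels of the Myc lines are given here by VEGF transgene and by medium, whose part in them was not tested. The 2 lines with Myc and VEGF averaged 6.01 and the 3 with Myc alone 5.88. MVT1, MVT2 and 780 were grown in the same medium, and there the mean of the Myc lines minus 780 was -3.30. Line 780 is 1 line that also differs from them in BRCA and Wap-cre, so line, genotype and transgene cannot be told apart there. The other Myc lines were grown in low-glucose medium that no other GEM line shared, so for them medium and transgene cannot be told apart. Media of the lines from unengineered mice are not stated in the labels.

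The level of Myc RNA itself did not order the lines the way Has2 did. Myc, the transgene's transcription factor, read 11.94 in cMyc, 11.81 in Myc83 and 11.53 in 6DT1, above every GEM line with another driver. It was lower in MVT1 at 11.21 and MVT2 at 10.99. Of the lines with high Has2, p1522 read 11.45, M6 11.09 and 780 11.01. The rest of the GEM lines ran from 9.16 in DB7 to 10.81 in 2508. Among unengineered lines 67NR, which was low in Has2, had the most Myc RNA at 11.60. Across 17 lineages Has2 and Myc had a Pearson r of -0.39 and a Spearman rho of -0.38 (r = -0.33 without the 2 lineages farthest in Has2). In the 12 lineages with no Myc transgene r was 0.14, and in the 7 that were not engineered 0.43. These are descriptions across lineages measured on 1 or a few arrays each, and the part of Myc RNA level in Has2 was not tested.

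The unengineered lines spanned both ends of the engineered ones. From the lowest, Has2 read 5.79 in NMUMG, 6.14 in 67NR, 6.66 in TSA, 6.75 in D2A1, 7.95 in 4T07, 8.59 in EMT6, 8.96 in F311, 9.08 in EPH4, 10.72 in 4T1 and 11.34 in D20R. Thus 2 of the 10 lay within the range of the Myc lines, 4 lay between the Myc and the other GEM lines, and 4 lay at or above the lowest other GEM line. D20R and 4T1 held the highest values of all 22 lines, above DB7. In the order of all 22 lines, the neighbours from 9.36 in p1522 down to 8.86 in 2508 each differed by less than the SD between lineages of any origin. With 1 array per line, no neighbour in that order can be called different from the next.

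Lineages of unengineered tumours averaged 8.30 ± 0.97 (SD, n = 5) for Has2, and the GEM lineages together 7.71 ± 1.92 (SD, n = 10). In limma's test over all 16755 probe sets, the GEM minus spontaneous difference of -0.59 (SE 0.87, 95% interval -2.42 to 1.23) had an adjusted p of 0.961. It was -1.001 without TSA and -0.37 without 6DT1, and the wide GEM spread is that of its Myc and other lineages. The immortalized lines, at 9.08 and 5.79, were as far apart as GEM lineages of opposite kind, and tumour minus immortalized was 0.57 (SE 1.20, 95% interval -1.95 to 3.10, limma adjusted p = 0.899). That value was 2.22 without EPH4 and -1.07 without NMUMG, so single lines set its direction.

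Lines of 1 origin also differed widely in Has2. Within the 4T family the level was 6.14 in 67NR, 7.95 in 4T07 and 10.72 in 4T1, and 4T1 exceeded 67NR by 4.59 log2 units, or 24.0-fold. Only 0.209% of all probe sets differed that far between these lines. D20R exceeded D2A1 by 4.59 as well, 24.1-fold, a distance reached by 0.0477% of probe sets. By contrast M6C and its parent M6 differed by -0.06, and 2508 and 2855 by -0.80. The Has2 values of 67NR and D2A1 lay below every array median, so the folds given for their pairs are uncertain. None of these pairs has a replicate, so none was tested.

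The other synthases did not follow Has2. Has1, a synthase of low activity, lay below every array median in 22 of 22 lines, between 5.45 in p1522 and 6.76 in 2855. Its lineage means were 6.01 ± 0.18 (SD, n = 5) with Myc, 5.85 ± 0.38 (SD, n = 5) in other GEM, 6.04 ± 0.28 (SD, n = 5) in spontaneous and 5.94 ± 0.16 (SD, n = 2) in immortalized lineages. These groups overlapped. Has3, the synthase of shorter chains, also stayed below every array median in 22 of 22 lines, from 5.16 in p1522 to 5.82 in EPH4. Its means were 5.41 ± 0.13 (SD, n = 5), 5.35 ± 0.21 (SD, n = 5), 5.45 ± 0.12 (SD, n = 5) and 5.55 ± 0.38 (SD, n = 2) in the same order. No line therefore read above its array median in Has1 or Has3 where Has2 was low.

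Both small ranges moved with the width of the arrays. Over 22 arrays, the correlation with the array's SD was -0.90 for Has1 and -0.74 for Has3. It was -0.14 for Has2, with a median of -0.18 over all genes. Counted from the most negative, Has1 lay at the 6.09th percentile of genes and Has3 at the 23.4th, so values like that of Has3 were common. The narrowest array, 2855, had the highest Has1 and, after EPH4, the highest Has3. What part array width has in these levels was not tested. Over 17 lineages r with Has2 was -0.06 for Has1 and 0.12 for Has3. In the 7 unengineered lineages it was 0.35 and 0.66, across values that lie near background.

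**Figure D2:**
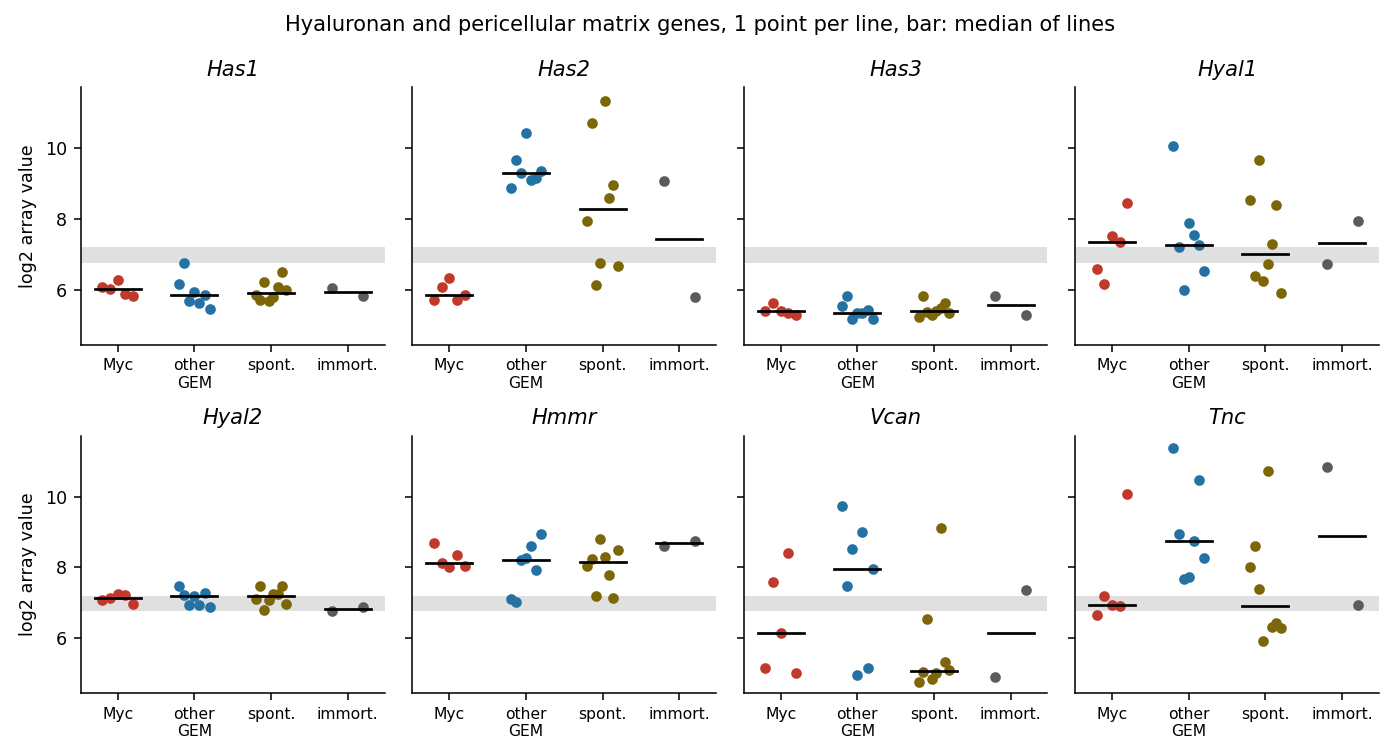
The 8 genes by origin of the line, as log2 array values on 1 shared vertical scale, with a point per line, a bar at the median of the lines and a grey band over the range of the array medians. Has2 is the gene whose Myc and other GEM lines do not overlap. Has1 and Has3 stay under the band in every line, and Vcan and Tnc spread above and below it within groups.

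Of the hyaluronidases, Hyal1 varied widely between lines and Hyal2 little, with SDs over 22 lines of 1.13 and 0.21 (the 97.0th and 14.2nd percentile of genes). Hyal1, a lysosomal enzyme that cuts hyaluronan into small fragments, read 6.15 in cMyc, 6.58 in 6DT1, 7.33 in MVT2, 7.51 in MVT1 and 8.45 in Myc83. The other GEM lines ran from 6.00 in 780 through a median of 7.25 to 10.06 in 2508. The spontaneous lines ran from 5.90 in TSA through a median of 7.005 to 9.67 in 67NR, and EPH4 and NMUMG read 6.72 and 7.94. High and low lines occurred in each of these origins, and the lineage means lay between 7.20 ± 0.89 (SD, n = 5) with Myc and 7.33 ± 0.86 (SD, n = 2) in the immortalized lines. A second probe set also matches the neighbouring gene Naa80, and it correlated with this one at r = 0.78 over 22 lines.

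Hyal1 went against Has2 inside the 4T family. It read 9.67 in 67NR, 8.55 in 4T07 and 6.40 in 4T1, so the line with the least Has2 had the most Hyal1. The drop from 67NR to 4T1 was 9.70-fold, and 0.842% of probe sets differed as far. The 4T1 value lay below every array median, so that fold is uncertain. The probe set shared with Naa80 read 8.54 in 67NR, 7.70 in 4T07 and 7.67 in 4T1, so it was also highest in 67NR but showed a much smaller drop and hardly a step from 4T07 to 4T1. That pattern did not extend to all lineages, over which r between the genes was 0.07, and 0.04 in the 7 unengineered lineages. Hyal1 was instead higher in lineages with more epithelial marker RNA, with r = 0.57 and rho = 0.70 against the mean of 11 epithelial markers over 17 lineages (r = 0.59 without the 2 lineages farthest in that mean).

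Hyal2, a membrane-anchored hyaluronidase that starts the breakdown of long chains, kept between 6.77 in EPH4 and 7.49 in F311. It read 7.13 ± 0.12 (SD, n = 5) with Myc, 7.09 ± 0.19 (SD, n = 5) in other GEM and 7.21 ± 0.19 (SD, n = 5) in spontaneous lineages, and 6.82 ± 0.07 (SD, n = 2) in the immortalized lines. The tumour lineages were 0.34 log2 units above the immortalized (SE 0.14, 95% interval 0.04 to 0.63). The adjusted p of limma was 0.340, so the difference did not pass the threshold over all probe sets, although unadjusted p was 0.0268. The tumour line 67NR, at 6.80, lay between EPH4 and NMUMG at 6.87.

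Hmmr encodes a hyaluronan-binding protein that also sits on the mitotic spindle and is made mostly in dividing cells. It read 8.01 in MVT1, 8.03 in Myc83, 8.12 in cMyc, 8.35 in MVT2 and 8.70 in 6DT1. Other GEM lines ran from 7.02 in 2855 through a median of 8.21 to 8.96 in p1522, and spontaneous lines from 7.15 in F311 through 8.15 to 8.80 in D2A1. EPH4 and NMUMG read 8.62 and 8.76. The Myc lines fell inside the range of the others, and the low values belonged to 2855, 2508, F311 and 67NR. Hmmr and Has2 had r = -0.22 over 17 lineages and -0.46 in the 7 unengineered ones.

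Hmmr followed the cell cycle genes. Against the mean of 13 listed cell cycle genes, among them the mitotic genes Ccnb2 and Plk1, it had r = 0.94 and rho = 0.92 over 17 lineages, and r = 0.89 without the 2 lineages farthest in that mean. In the 7 unengineered lineages r was 0.98. The same lineages at the low end, ZD2508 (lines 2508 and 2855) and F311, were those with the narrow arrays, and Hmmr correlated with array SD at r = 0.66 over 22 arrays. ZD2508 was also the lineage grown in low serum with insulin and EGF. Leaving both lineages out gave the r of 0.89, and the part of array width or medium in the relation was not tested further.

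**Figure D3:**
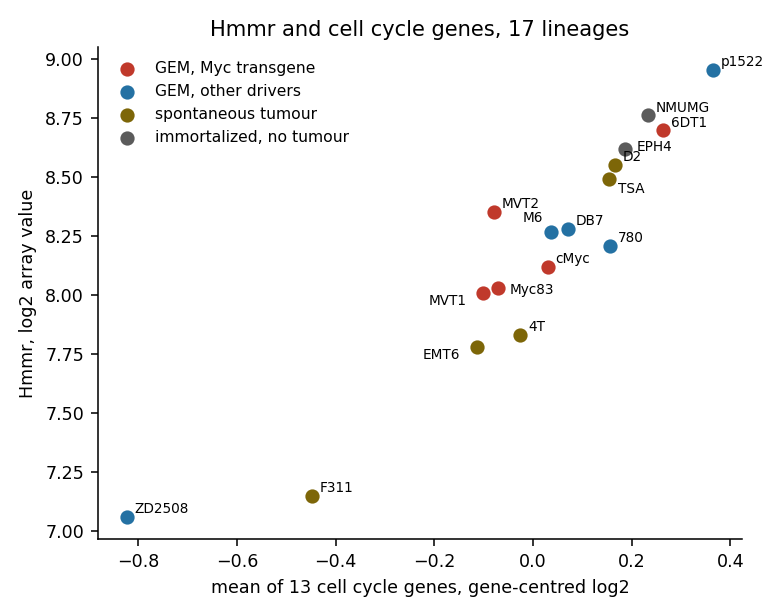
Hmmr log2 array value on the vertical axis against the mean of 13 cell cycle genes, each centred on its own mean over lineages, on the horizontal axis. Each of the 17 points is a lineage coloured by origin. The points rise together (r = 0.94), with the ZD2508 and F311 lineages at the lower left and p1522 at the upper right.

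The promoter of Hmmr is shown because this gene followed that list and CCAAT boxes are common in promoters of cell cycle genes. RefSeq's promoter table for GRCm38.p6 gives a start for Hmmr that lies 27 bases inside the outer limit of the gene. Of the 250 bases before that start, the 223 outside the gene are printed, chr11:40733465-40733687, minus strand, written 5′ to 3′ in the gene's direction, and capitals mark ATTGG, which is CCAAT read from the opposite strand.

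Hmmr: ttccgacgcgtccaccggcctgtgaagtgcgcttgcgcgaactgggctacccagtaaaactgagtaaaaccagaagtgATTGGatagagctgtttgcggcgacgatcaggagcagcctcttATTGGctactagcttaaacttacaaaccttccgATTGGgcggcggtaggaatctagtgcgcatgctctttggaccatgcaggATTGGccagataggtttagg

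The printed bases hold 4 matches to CCAAT, counting both strands, and the 27 bases inside the gene hold 1 more. Of 32851 promoter windows of 250 bases, 0.213% held 5 or more. At least 1 match was found in 33.8% of windows and at least 2 in 10.1%. Of the listed cell cycle genes, 11 had a window. Taking for each gene its window with the most matches, all 11 held a match and 8 held 2 or more. These are counts of genes, some of which may have several windows, so they are not on the same footing as the shares of single windows. Such a match is a description of letters, not a site. Promoter windows were available for 6 of the 8 members, 7 windows in all because Tnc had 2 starts, and those of Has2 and Has3 were not analysed here. Of the 7 windows, 5 overlapped the outer limits of their own gene, because the table's start is not always the outermost one. The windows of Hyal2, Vcan and Has1 lay inside their genes over all 250 bases. The letters CACGTG, the core of the Myc-binding E-box, occurred in 0 of the 7 and in 6.02% of all windows, and TTTGAA, the core of the cell cycle homology region, in 1, that of Has1, and in 16.0% of all. These motifs share no overlap with CCAAT.

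The matrix genes Vcan and Tnc were as variable as Has2 but split the lines differently. Over 22 lines the SD of Has2 was 1.82, of Vcan 1.70 and of Tnc 1.66 (the 99.6th, 99.4th and 99.4th percentile of genes). Vcan, whose product binds hyaluronan chains into the pericellular coat, read 5.01 in Myc83, 5.14 in 6DT1, 6.14 in MVT1, 7.59 in cMyc and 8.42 in MVT2. The other GEM lines ran from 4.95 in DB7 through a median of 7.96 to 9.73 in 2508. In the spontaneous lines it lay between 4.77 in 4T07 and 6.54 in 67NR, apart from EMT6 at 9.11. EPH4 read 4.90 and NMUMG 7.37. Over all, 13 of 22 lines and 7 of 8 spontaneous lines were below every array median.

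Low Vcan thus did not go with low Has2. DB7, 4T1 and D20R held the 3 highest Has2 values and read 4.95, 5.05 and 5.01 in Vcan, whereas MVT2, among the lowest in Has2, read 8.42. Over 17 lineages r between Vcan and Has2 was 0.03, and -0.25 in the 7 unengineered lineages. Lineage means of Vcan were 6.46 ± 1.504 (SD, n = 5) with Myc and 7.42 ± 1.51 (SD, n = 5) in other GEM, a difference of -0.96 within overlapping groups. Against the spontaneous mean of 5.99 ± 1.76 (SD, n = 5) the GEM lineages were 0.95 higher (SE 0.80, 95% interval -0.72 to 2.63, limma adjusted p = 0.944). Without EMT6 that difference was 1.74 (limma adjusted p = 0.611).

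Vcan also changed between M6 and its metastatic derivative. It read 5.17 in M6 and 9.01 in M6C, a 14.4-fold difference that 0.0179% of probe sets reached. The M6 value lay below every array median, so that fold is uncertain. From M6 to M6C Tnc fell by 1.73 on the log2 scale and Has2 hardly moved. In the Wnt lines Vcan was 2.26 higher in 2508 than in 2855, and in the 4T family it differed from 67NR by -1.76 in 4T07 and -1.48 in 4T1.

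Tnc, a glycoprotein of wound and tumour matrix that modulates adhesion, had the highest r with Has2 of the other members over all 17 lineages, though a low one. In the Myc lines it read 6.66 in 6DT1, 6.91 in MVT2, 6.94 in MVT1, 7.21 in cMyc and 10.09 in Myc83. The other GEM lines ran from 7.68 in 780 through a median of 8.76 to 11.39 in 2508. Of the Myc lines, 4 lay below every other GEM line and Myc83 lay among the highest of them, so that the groups overlapped through 1 line. The means were 7.56 ± 1.43 (SD, n = 5) and 8.69 ± 1.14 (SD, n = 5), and their difference of -1.13 was -1.76 without Myc83.

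In the unengineered lines Tnc ran from 5.93 in D2A1 to 10.73 in D20R among spontaneous tumours, with a median of 6.91, and EPH4 and NMUMG read 10.84 and 6.94. Has2 and Tnc were both higher in D20R than in D2A1, Tnc by 27.7-fold, which 0.0358% of probe sets reached. Tnc in D2A1 lay below every array median, so that fold is uncertain. Both genes were also higher in 4T1 than in 67NR and in EPH4 than in NMUMG. EMT6 and F311 did not share it, with Has2 at 8.59 and 8.96 and Tnc at 6.31 and 6.43. Over 17 lineages r between Has2 and Tnc was 0.35 and rho 0.47, with r = 0.25 without the 2 lineages farthest in Has2. In the 7 unengineered lineages r was 0.44, below Has3 (0.66) and Hyal2 (0.45). Tnc ranked 1198th by r with Has2 among the 9657 genes searched, so the likeness was weak.

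**Figure D4:**
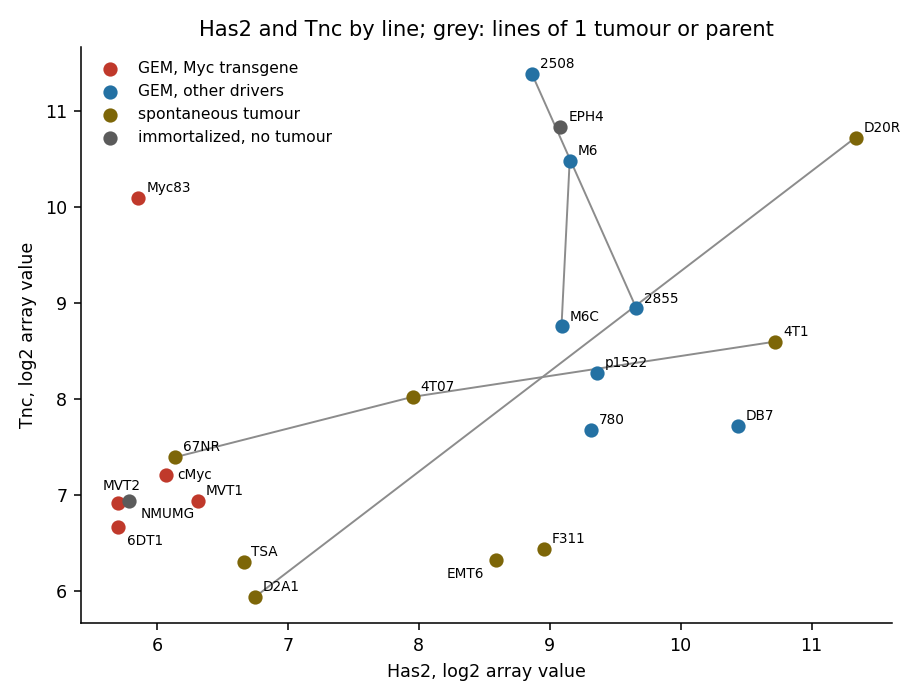
Has2 on the horizontal and Tnc on the vertical axis, both as log2 array values, with a point for each of 22 lines coloured by origin. Grey lines join lines of 1 tumour or parent. D2A1 to D20R and 67NR to 4T1 run upward on both axes, while Myc83 (10.09 in Tnc) and EMT6 and F311 (6.31 and 6.43) lie off that direction.

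Of the 8 members, 1, Has2, had Myc and other GEM lineages that did not overlap, and it was lower with Myc. Of all 16755 probe sets, 0.376% were lower and 0.245% higher in Myc with no overlap, and 0.0119% passed limma's adjusted threshold. Since that contrast chose the set, nothing is read from this count. The other members differed by -1.13 for Tnc, -0.96 for Vcan, -0.08 for Hyal1, 0.04 for Hyal2, 0.07 for Has3, 0.09 for Hmmr and 0.16 for Has1. Leaving out 1 lineage turned the sign of 3 of these, with ranges of -0.41 (without 780) to 0.25 (without ZD2508) for Hyal1, -0.19 (without ZD2508) to 0.29 (without p1522) for Hmmr and -0.0168 (without p1522) to 0.0996 (without ZD2508) for Hyal2. Vcan ran from -1.58 without DB7 to -0.60 without Myc83, Has1 from 0.05 to 0.31 and Has3 from 0.01 to 0.15.

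GEM lineages were set against spontaneous ones to ask whether tumour origin goes with these genes. By limma 0 of 8 members passed an adjusted p of 0.05, against 0.113% of all probe sets, and 0 of 8 had an unadjusted p under 0.05, against 7.72%. Tnc had the smallest adjusted p, 0.870, with GEM lineages at 8.13 ± 1.36 (SD, n = 10) and spontaneous lineages at 7.08 ± 1.003 (SD, n = 5). Its difference of 1.05 (SE 0.71) had a 95% interval of -0.44 to 2.54, and Vcan and Has2 had intervals at least as wide. Hmmr differed by 0.24 (95% interval -0.31 to 0.78), Has1 by -0.11, Hyal2 by -0.09, Has3 by -0.07 and Hyal1 by -0.01, with limma adjusted p between 0.961 and 0.999.

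The tumour lineages, averaged over both origins, were set against the immortalized lines to ask what goes with transformation. By limma 0 of 8 members passed, against 0.298% of all probe sets, and 1 of 8, Hyal2, had an unadjusted p under 0.05, against 11.9%. Hmmr differed by -0.61 (SE 0.36, 95% interval -1.37 to 0.14, limma adjusted p = 0.538). Tnc differed by -1.29 (95% interval -3.35 to 0.78), Vcan by 0.33, Has3 by -0.14, Hyal1 by -0.08 and Has1 by 0.05, with limma adjusted p between 0.666 and 0.974. Leaving out NMUMG or EPH4 moved Tnc to -3.24 or 0.66, and Vcan to 1.56 or -0.90, so the direction of both rested on single lines. With 2 immortalized lines that themselves differed by 3.29 in Has2, 3.90 in Tnc and -2.46 in Vcan, differences below about the width of these intervals were not detectable.

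**Figure D5:**
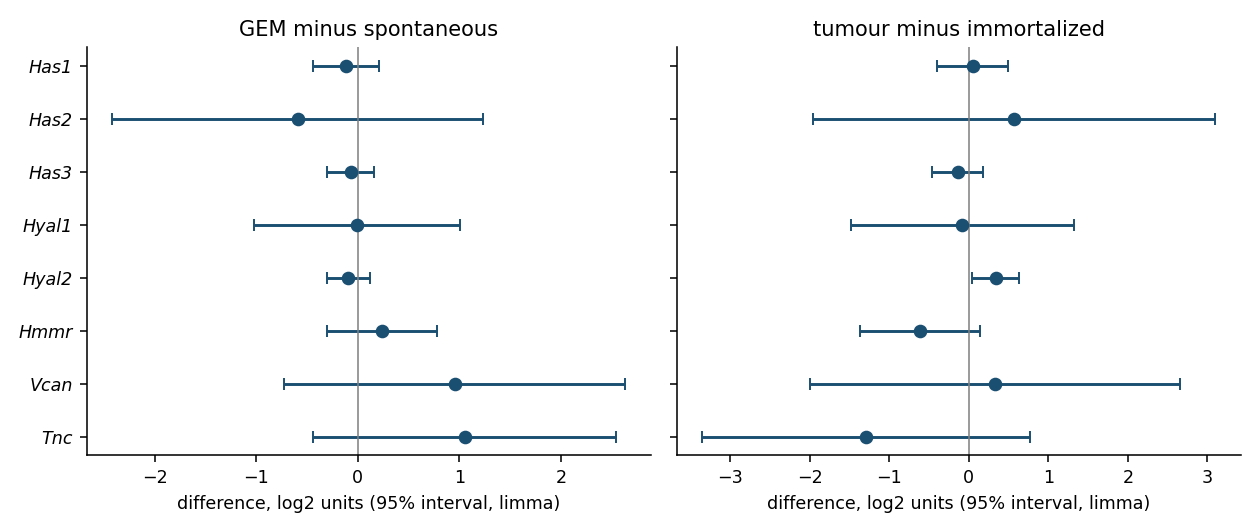
Difference of each member in log2 units on the horizontal axis, GEM minus spontaneous at left and tumour minus immortalized at right, with points for limma's estimate over 17 lineages and bars for its 95% interval. All 8 intervals at left hold 0. At right the interval of Hyal2 (0.04 to 0.63) does not, and its adjusted p is 0.340.

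Among related lines, members that differed by at least 1 log2 unit were counted beside all probe sets. From 67NR to 4T1, 3 members were higher by that much and 2 lower (7.31% and 5.5% of probe sets). From 67NR to 4T07 it was 1 higher and 2 lower (6.23% and 3.97% of probe sets), and from 4T07 to 4T1 1 and 1 (1.4% and 1.78%). From D2A1 to D20R 2 were higher and 0 lower (2.19% and 2.12%). From M6 to M6C it was 1 and 1 (1.11% and 0.46%), and from 2855 to 2508 3 and 0 (2.87% and 2.41%). EPH4, which is not related to NMUMG, had 2 higher and 2 lower than it (4.68% and 4.79%). In each pair the members that moved were among Has2, Hyal1, Vcan, Tnc and, once, Hmmr, and with single arrays none of this was tested.

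The wider pathway was read from lists of genes for sugar precursors, hyaluronan turnover, receptors, binding proteins, pericellular matrix, versican-cleaving proteases and the cell cycle. Of 75 measured genes, 0 passed limma's adjusted threshold in GEM against spontaneous (smallest adjusted p 0.230) and 0 in tumour against immortalized (0.117). Unadjusted p fell under 0.05 for 2 of 10 precursor, 1 of 7 turnover, 2 of 8 receptor, 1 of 15 binding, 2 of 18 pericellular, 1 of 4 protease and 1 of 13 cell cycle genes in the first comparison, where 7.72% of all probe sets did so (0.113% passed when adjusted). In the second it did so for 1 of 8 receptor, 1 of 18 pericellular, 1 of 4 protease and 4 of 13 cell cycle genes and for 0 genes of the other lists, where 11.9% of all probe sets did so (0.298% when adjusted).

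Between Myc and other GEM lineages the median difference of all probe sets was 0.03, and 58.1% of them were higher with Myc. List medians were 0.01 for precursor genes, with 5 of 10 higher, 0.04 for turnover (4 of 7), -0.00478 for receptors (4 of 8), 0.13 for binding proteins (10 of 15), -0.24 for pericellular matrix (9 of 18), -0.24 for the proteases (2 of 4) and 0.10 for the cell cycle (8 of 13). These are counts beside that background, with no test. The 2 genes of each list with the largest difference all had overlapping groups. Of the precursor genes, Ugp2, which makes UDP-glucose, differed by -0.70 and Hk2, a hexokinase, by 0.62.

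Of the turnover genes, Hexa, a lysosomal hexosaminidase subunit, differed by 0.79 and Cemip2, a cell-surface protein of hyaluronan breakdown, by -0.39. Among receptors, Cd44, the main hyaluronan receptor, averaged 8.53 ± 0.48 (SD, n = 5) with Myc and 8.74 ± 0.87 (SD, n = 5) in other GEM lineages, and Tlr4, an innate immune receptor that responds to hyaluronan fragments, differed by 0.79. Cd44 therefore gave no split like that of Has2, and its r with Has2 over 17 lineages was 0.12. Among binding proteins, Itih2, a heavy chain transferred onto hyaluronan, differed by 0.89 and the cartilage proteoglycan gene Acan by 0.86.

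The pericellular genes with the largest differences were Bgn, a small proteoglycan gene, at 6.06 ± 0.72 (SD, n = 5) with Myc and 7.76 ± 1.39 (SD, n = 5) without, and Postn, the periostin gene, at 6.09 ± 2.05 (SD, n = 5) with and 7.72 ± 2.31 (SD, n = 5) without. The Myc means of both lay below every array median. Of the versican-cleaving proteases Adamts1 differed by -0.77 and Adamts5 by -0.55, and of the cell cycle genes Ccnb2 by 0.33 and Plk1 by 0.23.

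Marker levels of other cell states are set beside the split in Has2. The epithelial adhesion gene Cdh1 lay below the array median in 4 of 5 Myc lines and in 3 of 7 other GEM lines. Krt18 lay below it in 0 of 5 Myc lines and in 1 of 7 other GEM lines. Related lines count separately among these 7. The summed level of 11 epithelial markers ran from 72.2 to 91.0 with a median of 72.5 in the Myc lines. In the other GEM lines it ran from 67.4 to 109 with a median of 92.0. Over lineages the median gene of that list differed by -0.73. Of the 11 genes, 8 were lower with Myc and 3 higher, Krt19 by 0.35, Krt18 by 0.21 and Ovol1 by 0.10. The 14 mesenchymal markers summed to between 111 and 127 in the Myc lines and between 105 and 131 in the other GEM lines. The 6 immune markers summed to 33.5 to 38.1 and 32.5 to 36.3, and 5 of the 6 were higher with Myc on average. The leukocyte gene Ptprc was at most 4.58 in the Myc lines. Cd68, a lysosomal gene typical of macrophages, averaged 9.32 ± 1.28 (SD, n = 5) with Myc and 7.31 ± 0.80 (SD, n = 5) in other GEM lineages, a difference of 2.01. The other immune markers showed no such difference, at -0.12 for Csf1r, 0.03 for Ptprc, 0.07 for Adgre1, 0.12 for Itgam and 0.20 for Cd3e. In each Myc line 5 of the 6 immune markers lay below the array median. The 5 endothelial markers summed to 24.3 to 25.3 and 23.5 to 27.0. Has2 had r = 0.31 with the epithelial and 0.06 with the mesenchymal marker mean over 17 lineages. By rank the order was the other way, with rho = 0.02 for the epithelial and 0.22 for the mesenchymal mean. The part of epithelial state in the level of Has2 was not tested.

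The genes most like Has2 over 17 lineages, out of 9657 searched, were Ltbp2 (r = 0.80), a matrix protein gene of the latent TGF-beta binding family, Ptcd1 (0.80), Fst (0.80), the activin-binding follistatin, Gdpd5 (0.77) and Cd200 (0.77), a surface immune regulator. The most opposite were Ston1 (-0.78), Tbcel (-0.77), Abcc5 (-0.77), an efflux transporter, Hmbox1 (-0.76) and Rnf128 (-0.75), a ubiquitin ligase. They were picked for these values, and the Myc lineages weigh on them as they do on Has2. In the 7 unengineered lineages r with Has2 was 0.90 for Ltbp2, 0.83 for Ptcd1, 0.41 for Fst, 0.64 for Gdpd5 and 0.61 for Cd200, and between -0.74 for Ston1 and -0.89 for Tbcel among the opposite genes. Those 7 also entered the search.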

How the data were processed

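RNA of 22 lines was measured on mouse exon arrays, 1 per line. GCOS (array software) and the build mm9 appear in the submitters' processing notes. How probes were summarized and arrays normalized was not given in the sources used here. Log2 values as the authors deposited them, whose scale was read from their range (2.74 to 13.9), were used unchanged. Of 23332 entries, 16755 transcript clusters were tested and 6577 others left out; 14996 had 1 gene symbol. Identifiers of 14805 of 14860 genes matched RefSeq.

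Lines of 1 origin were averaged into 17 lineages. Differences were tested over all probe sets with limma 3.58.1 (lmFit, eBayes, R 4.3.3), Benjamini-Hochberg threshold 0.05: GEM against spontaneous and tumour against immortalized in 1 fit of 17 lineages, Myc against other GEM for counts alone. The p-values measure the spread between lineages, and the number of arrays limits precision. This step was also run on simulated data with known changes, whose outcome is not given here.

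The members and lists were chosen with earlier results of these data known. Named were all members, per list the 2 genes with the largest Myc difference, and the 5 most and 5 least like Has2. Alternatives changed normalization, filter, replicate unit and variance model, or left out lineages. Python 3.11.15, pandas 2.3.3 and matplotlib 3.10.9 were used. Krt8 and Trp53 were not analysed here.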

Additional observations from a re-analysis of the deposited data

Results flagged for a closer look

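Over the 8 genes and the 3 origins with 5 lineages, 24 groups were examined for a lineage far from the others, and 3 had one, where chance gives about 1 in 20. That rate assumes independent groups, whereas the 8 genes share the same lineages and Has2 chose the set. Nothing is therefore read from the count. Has2 in DB7, at 10.44, was the highest of the other GEM lineages, the nearest being 9.36, and this gap was 0.820 of the group's range. Vcan in EMT6, at 9.11, was the highest of the spontaneous lineages, the nearest being 5.45 (0.874 of the range). Tnc in Myc83, at 10.09, was the highest of the Myc lineages, the nearest being 7.21 (0.841 of the range).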

How the results depend on the processing

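Under no alternative did a member pass limma's threshold in GEM against spontaneous or tumour against immortalized (smallest adjusted p 0.132), and Has2 stayed lower in Myc than in other GEM lineages in every alternative run. Nothing is read from that steadiness of Has2, because the contrast chose the members and its groups do not overlap. Hyal1, GEM minus spontaneous, became 0.00299 with lineage as a random block and 0.12 without 2855, F311 and 2508, a set chosen after the array SDs were seen. Tumour minus immortalized became -0.0384 for Has1 without those 3 lines and 0.0560 for Hyal1 with each line as a replicate. Leaving out each lineage in turn gave -0.34 to 0.28 for Hyal1, -1.001 to -0.37 for Has2 and 0.69 to 1.74 for Vcan in GEM minus spontaneous. In Myc minus other GEM it turned the sign of Hyal1 (-0.41 to 0.25), Hmmr (-0.19 to 0.29) and Hyal2 (-0.0168 to 0.0996). In tumour minus immortalized it gave -1.07 to 2.22 for Has2, -0.0626 to 0.157 for Has1, -0.41 to 0.13 for Has3, -0.69 to 0.53 for Hyal1, -0.90 to 1.56 for Vcan and -3.24 to 0.66 for Tnc, with EPH4 or NMUMG left out at each of these ends; the lone immortalized line was then assumed to vary like the others.

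The 19 probe sets called in GEM against spontaneous became 91 with each line as a replicate and 12 with the random block, and 9 (without D2) to 32 (without 780) over lineages left out. The 50 in tumour against immortalized became 120 after quantile normalization, 2 without probe sets of mean below 6.01, 412 with every table entry and 103 with each line as a replicate, and 28 (without 6DT1) to 413 (without NMUMG). The 2 in Myc against other GEM became 4 with each line as a replicate, 0 with all 17 lineages in the fit, and 2 to 15 (without p1522). In the medium shared by MVT1, MVT2 and 780 alone the Myc difference was 1.42 for Hyal1 and 0.29 for Hyal2. The cause of these changes was not tested. The correlation with Has2 in the 7 unengineered lineages was 0.35 for Has1, 0.66 for Has3, 0.45 for Hyal2, -0.46 for Hmmr and -0.25 for Vcan, and -0.39 for Has1 without 2855, F311 and 2508. Levels near background limit Has1, Has3, low Has2, low Vcan, low Hyal1 and low Tnc.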
